A study of Homo sapiens with 19 samples.

Results

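RNA levels were compared between U2OS cells given mock siRNA and U2OS cells given EP400 siRNA, with 1 RNA sequencing library on each side, which are 2 of the 19 samples of the series. U2OS, an established line of human osteosarcoma cells, stands for a single tumour. The cells grew in DMEM with Tet-approved serum, carried either an siRNA against GFP (the mock) or an siRNA against EP400 for 72 hr, and were then harvested for total RNA and a TruSeq RNA v2 library. The other samples are chromatin immunoprecipitations (ChIP) from the same cell line with their inputs, and the series title asks whether EP400 places the histone variant H3.3 at promoters and enhancers of genes that become active. The table gives FPKM (fragments scaled by transcript length and by library size) for 48669 transcript rows. Of these, 46149 rows had a length of 200 nt or more and a usable estimate in both libraries, and they were summed into 24080 genes. A mean of at least 1 FPKM over both libraries left 11674 genes, of which 11411 have a symbol. The log2 ratio given throughout is that of EP400 siRNA over mock after adding 1 FPKM to each value, which understates the difference of low genes. With 1 library a side there is no replicate check, so the values compare these libraries and no p-value is given.

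EP400 belongs to the SNF2 family of ATPases and drives a large remodelling complex, TIP60-EP400, that exchanges histones in nucleosomes near the starts of genes. H2A.Z and H3.3, the variants it acts on, are found at promoters and enhancers of active genes. U2OS cells descend from bone-forming mesenchyme and keep p53 and RB genes, so they are widely used for studies of transcription and the cell cycle.

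EP400 itself stood at 10.04 FPKM in the mock library, from about 6142 fragments, and at 2.28 FPKM after EP400 siRNA, from about 2185 fragments. That is 22.8% of the mock value as deposited. After adding 1 FPKM to each value the log2 ratio was -1.75, and it was -1.29 when each fragment was given equal weight in both libraries. Mesenchymal markers were present on both sides, with the intermediate filament gene VIM at 618 FPKM in the mock library and 1132 FPKM after EP400 siRNA and the osteonectin gene SPARC at 229 and 179 FPKM. COL1A2 was near 0 on both sides (0.0114 and 0.00486 FPKM) although COL1A1 was not. The marker genes of endothelial cells and hepatocytes were all under 1 FPKM in both libraries, and ALB and TTR were listed at 0 in both. Of the 7 leukocyte markers CD3E was listed at 0 in both libraries and PTPRC, the common leukocyte antigen, stood at 0.00835 and 0.0294 FPKM, but the actin-bundling gene LCP1 was at 0.32 FPKM in mock and 3.07 FPKM after EP400 siRNA (log2 ratio 1.62) and the lysosomal gene CD68 at 10.1 and 15.7 FPKM. The summed level of these 7 genes was 11.1 and 19.1 FPKM. Epithelial cadherin and EPCAM were also under 1 FPKM, but the simple keratins KRT8 and KRT18 were at 369 and 519 FPKM in mock cells, and TNNC1, listed as a muscle marker, at 156 FPKM. The summed level of the 10 epithelial markers was 959 FPKM in mock and 443 FPKM after EP400 siRNA, and the part of other cell types in any result was not tested.

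The depth of the libraries can be read from the table, because the FPKM of rows with few fragments are whole multiples of a step. In rows of 1500 nt or more, 1 fragment was worth 19.8 FPKM × nt in the mock library and 12.7 FPKM × nt in the EP400 siRNA library, each over the transcript length less 204 nt. All of 1047 and 1058 checked values were whole to within 0.1 fragment. The libraries held about 47086150 and 47148767 fragments over all rows, yet a fragment counted 1.56 times as much in the mock library. As deposited, every log2 ratio therefore lies 0.64 below the ratio of the fragments, apart from the effect of the added 1 FPKM.

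This scale decides the balance of higher and lower genes. As deposited, 713 genes passed 2-fold upward after EP400 siRNA (6.11%) and 2678 passed it downward (22.9%), with a median log2 ratio of -0.20 over all genes. After subtraction of that median the counts were 1260 (10.8%) and 1826 (15.6%). With equal weight per fragment they were 2875 (24.6%) and 828 (7.09%), with a median of 0.35. Rescaled to the same sum of FPKM (TPM), they were 3701 (31.7%) and 696 (5.96%), with a median of 0.48. The genes past 2-fold under all 4 scalings numbered 713 higher (6.11%) and 672 lower (5.76%), and these are called the higher and the lower genes from here on. Of them, 691 higher and 657 lower genes were past 2-fold even at the near end of a 95% interval for the counting error of their fragments, taken on the deposited scale for the former and per fragment for the latter. Higher genes were low in mock cells (median 2.79 FPKM, and 9.40 FPKM after EP400 siRNA), and lower genes were well expressed there (median 22.3 and 4.47 FPKM).

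**Figure D1:**
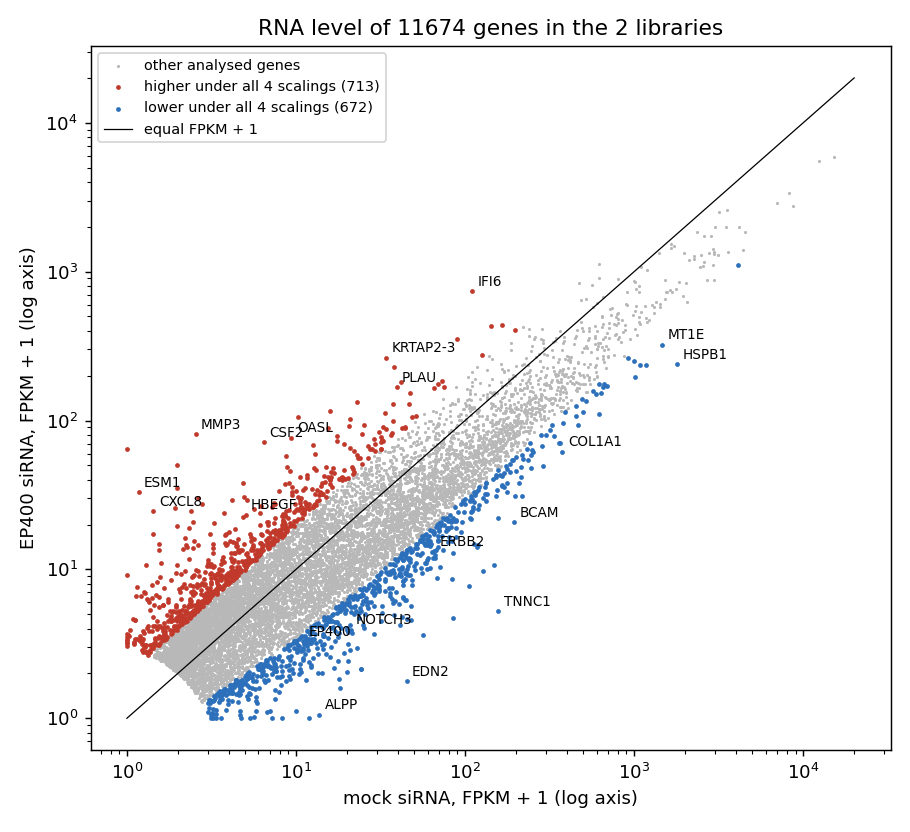
Each point is 1 of 11674 genes, with its FPKM + 1 in the mock library (horizontal, log axis) and in the EP400 siRNA library (vertical, log axis); red and blue mark genes past 2-fold upward or downward under all 4 scalings. The median mock level is 2.79 FPKM for red and 22.3 FPKM for blue points, a difference in part built in by choosing them by their ratio.

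**Figure D2:**
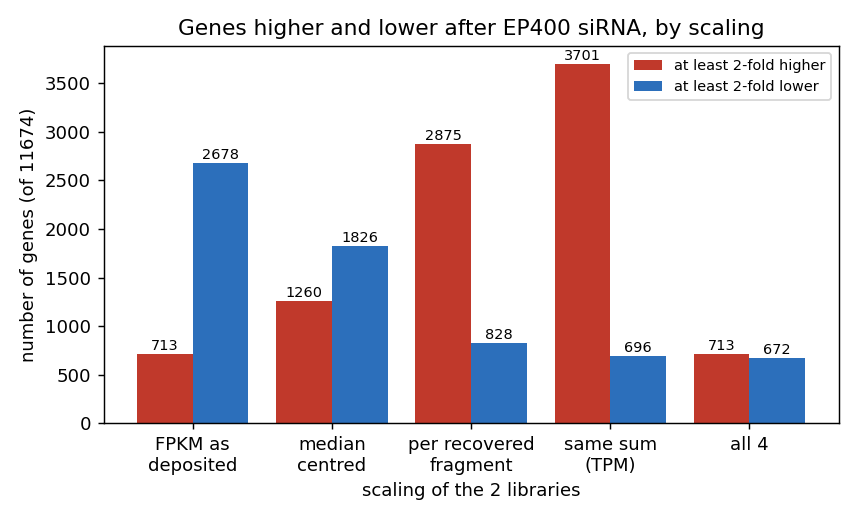
Bars give the number of genes at least 2-fold higher (red) or lower (blue) after EP400 siRNA under each scaling and under all 4 at once. Lower genes outnumber higher ones as deposited (2678 and 713), the order turns with equal weight per fragment (828 and 2875), and 713 and 672 genes pass under all 4.

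Interferon-stimulated genes and chemokine genes stood among the 30 genes with the highest ratios. These genes are known to be switched on through short DNA elements next to their start sites: interferon response elements bound by IRF factors, NF-kB sites, and AP-1 sites bound by FOS and JUN. The stretches below are from the RefSeq promoter table (GRCh38.p14, gene strand, 5′ to 3′). They show the bases around a match in genes named by their ratios, with only the match nearest the start in capitals. The first 4 hold the interferon pattern (GAAANNGAA on either strand), CXCL8 and CXCL3 the NF-kB pattern (GGANTTTCC) and the last line the AP-1 pattern (TGANTCA).
IFIT3, chr10:89327852-89327908, plus strand: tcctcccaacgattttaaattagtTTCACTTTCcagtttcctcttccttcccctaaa
IFI6, chr1:27672253-27672309, minus strand: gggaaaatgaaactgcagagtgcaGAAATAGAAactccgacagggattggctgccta
IFI44, chr1:78649748-78649788, plus strand: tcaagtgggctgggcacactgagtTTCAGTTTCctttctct
RTP4, chr3:187368343-187368384, plus strand: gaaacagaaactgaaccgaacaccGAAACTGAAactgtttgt
CXCL8, chr4:73740454-73740510, plus strand: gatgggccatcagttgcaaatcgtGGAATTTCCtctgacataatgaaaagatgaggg
CXCL3, chr4:74038735-74038791, minus strand: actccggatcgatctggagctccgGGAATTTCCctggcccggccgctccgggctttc
CXCL8, chr4:73740408-73740462, plus strand: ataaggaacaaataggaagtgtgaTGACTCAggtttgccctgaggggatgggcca
These are 7 of the 17 pairs of gene and pattern found in the 250 bases before the start of 38 genes. The 38 had a promoter entry, among 51 with the highest ratios or crossing upward from under 1 FPKM to at least 5 FPKM. A pair can hold more than 1 match: IFIT3 held 2 of the interferon pattern, and IFI6 and RTP4 3 each. In the stretches of IFI6 and RTP4 further matches stand in lower case. The interferon pattern was in 9 of the 38, also in the chemokine genes CCL3 and CXCL3 and in IL24, BCL2A1 and SLAMF9. The NF-kB pattern was in 4, also in NLRP3 and in the interferon-induced RIGI, and the AP-1 pattern in 4, also in SLAMF9, LPXN and DCLK1. Over all mRNA genes with an entry, the shares in this window were 5.35% (interferon), 1.45% (NF-kB) and 3.84% (AP-1). The counts were not tested against these shares. The interferon genes OAS1, OASL, OAS2, IFIT2 and HERC6 had either no match or no promoter entry. A match describes the letters in this window and does not show that a factor is bound.

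The genes behind these stretches were all low in mock cells except IFI6. IFIT3, a member of the family that binds foreign RNA, went from 1.78 FPKM in mock to 26.3 FPKM after EP400 siRNA (log2 ratio 3.298). IFI44 stood at 2.77 and 22.8 FPKM (2.66), and RTP4, a receptor transporter induced by interferon, at 0.761 and 5.07 FPKM (1.79). IFI6, which encodes an interferon-induced mitochondrial protein, was at 109 FPKM in mock and 737 FPKM after EP400 siRNA (2.75). The neutrophil chemokine CXCL8 stood at 0.435 and 23.7 FPKM, from about 33 and 2805 fragments, and CXCL3 at 0.543 and 12.5 FPKM, from about 26 and 940 fragments.

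Over the promoters of all mRNA genes with an entry in the table (8602 of 10495), the interferon pattern was found in 6.27% of windows from 250 bases before to 50 bases after the start, on either strand. Among the higher genes with an entry (546 of 658) the share was 10.4%. The NF-kB pattern was in 1.62% of all windows and 3.11% of those of higher genes, and the AP-1 pattern in 4.52% and 7.33%. The TATA box (TATAAA) was found in 5.43% of all windows and 11.2% of those of higher genes. The GC box (GGGCGG) was less frequent in higher genes, with 72.0% of all windows and 61.5% of those of higher genes. The cyclic AMP element (TGACGTCA, 3.48% and 3.297%) and the E-box (CACGTG, 10.4% and 11.7%) were close in both sets, and the C/EBP-ATF pattern (TGATGNAA) was in 1.62% and 3.297%. Matches of the E-box and the GC box overlapped in 14 promoters, the most for any pair of these patterns. Base composition differed too, with a median GC content of 65.7% over all promoters and 62.0% over those of higher genes, and its part in these shares was not tested. Among the lower genes 73.8% had an entry, too few for this check, which is void for them.

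The matrix metalloproteinase MMP3 and the proteoglycan ESM1 had the highest ratios. CSF2, which encodes the growth factor GM-CSF, was at 5.45 FPKM in mock and 70.6 FPKM after EP400 siRNA (log2 ratio 3.47). CCL3, a macrophage chemokine, stood at 1.14 and 12.7 FPKM (2.68), and the acute-phase gene SAA2 at 14.99 and 116 FPKM (2.87). The inflammasome sensor NLRP3 was at 1.19 and 15.2 FPKM (2.89), and CD22, known as an inhibitory receptor of B cells, at 1.45 and 19.8 FPKM (3.08). The 30 ratios ran from 2.64 (KRTAP2-2) to 4.99 (MMP3).

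Other members of the highest 30 act in structure and signalling. The collagen receptor subunit ITGA2 was at 0.597 FPKM in mock and 10.1 FPKM after EP400 siRNA (log2 ratio 2.80), and the basal keratin KRT15 at 1.34 and 18.02 FPKM (3.02). LPXN, a focal adhesion protein of the paxillin family, stood at 7.78 and 56.5 FPKM (2.71), and SP140, a nuclear body protein, at 1.22 and 13.5 FPKM (2.70). ANOS1, which encodes the secreted protein anosmin-1, was at 1.27 and 13.2 FPKM (2.65), and the phosphodiesterase-binding scaffold gene PDE4DIP at 2.26 and 19.3 FPKM (2.64). The hair keratin-associated genes KRTAP2-1 to KRTAP2-4 were among the 30 as well. KRTAP2-3 was the most abundant of them, at 33.01 and 263 FPKM, but these genes are near-identical copies and the split of fragments between them is uncertain.

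At the low end, the 30 lowest ratios ran from -4.91 (TNNC1) to -2.91 (HSPB1), and these genes kept ratios of -2.27 or lower with equal weight per fragment. The ranking leaves out genes listed at 0 in either library, among them RPL21 (log2 ratio -3.58). TNNC1, the calcium-binding troponin subunit of slow and cardiac muscle, was at 156 FPKM in mock and 4.22 FPKM after EP400 siRNA. CRYAB, a small heat shock protein, stood at 39.96 and 3.22 FPKM (log2 ratio -3.28), and its relative HSPB1 at 1799 and 238 FPKM. Both chaperones thus stood on the lower side. BCAM, a laminin receptor, was at 193 and 19.8 FPKM (-3.22), and PDLIM1, an actin-associated adaptor, at 23.3 and 1.14 FPKM (-3.50). S100A4, a calcium-binding protein of motile cells, stood at 116 and 13.04 FPKM (-3.06).

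Several more of the lowest genes encode regulators and receptors. MXD3, a partner of MAX in the MYC network, was at 82.7 FPKM in mock and 7.66 FPKM after EP400 siRNA (log2 ratio -3.27), and the forkhead factor FOXO6 at 22.1 and 1.95 FPKM (-2.97). KREMEN2, a receptor for the WNT inhibitor DKK1, stood at 41.2 and 3.77 FPKM (-3.14), and GPER1, a G protein-coupled oestrogen receptor, at 19.3 and 1.41 FPKM (-3.07). The matrix metalloproteinase MMP24 was at 27.8 and 2.70 FPKM (-2.96), opposite to MMP3. FXYD6 and FXYD7, small regulators of the sodium pump, were at 67.5 and 7.76 FPKM (-2.97) and at 16.8 and 0.821 FPKM (-3.29). TGM1, which crosslinks the envelope of skin cells, was at 19.1 and 1.06 FPKM (-3.29), and AP1M2, an adaptor subunit of epithelial sorting, at 112 and 13.7 FPKM (-2.94).

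Some genes crossed from hardly detected to clearly expressed or the reverse. With under 1 FPKM in mock and at least 5 FPKM after EP400 siRNA there were 33 genes, and 31 genes went the other way. The first set held IL24, PTX3, the apoptosis inhibitor BCL2A1 and the interferon genes OAS2, IFIT2, HERC6 and RIGI. RIGI, a sensor of viral RNA, stood at 0.357 FPKM in mock and 5.003 FPKM after EP400 siRNA, and OAS2 at 0.15 and 6.59 FPKM. RGS4, which shuts off G protein signals, was at 0.506 and 7.21 FPKM, and the kinase gene DCLK1 at 0.571 and 7.94 FPKM. The second set held the endothelin gene EDN2, the chemerin gene RARRES2, the BMP antagonist CHRD (9.47 and 0.993 FPKM) and the cardiac troponin gene TNNT2 (10.5 and 0.809 FPKM). ACKR3, an atypical chemokine receptor, was at 9.03 FPKM in mock and 0.1202 FPKM after EP400 siRNA. FOXS1, a forkhead factor, was at 7.25 FPKM in mock and listed at 0 after EP400 siRNA. RPL21 was also listed at 0 after EP400 siRNA, and as a ribosomal protein gene with many near-identical pseudogenes it may be a failed estimate. At stricter levels of 0.5 and 10 FPKM, 4 genes crossed upward and 2 downward.

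The authors deposited a lower and an upper confidence limit with each FPKM, and these were wide: in genes with 1 row and at least 1000 fragments the upper limit lay at the median 92.2% above the FPKM in mock and 89.4% above it after EP400 siRNA. The limits were apart for 10 genes on the higher side (0.0857% of 11674) and 15 on the lower side (0.128%). The higher ones were CXCL8, CXCL3, ESM1, IFIT2, the adhesion receptor ADGRL4, the scaffold gene MPP4, the receptor gene MRGPRX4, the small proline-rich gene SPRR2D and the long noncoding RNAs LINC00326 and MANCR. For CXCL8 the limits were 0.0316 to 0.839 FPKM in mock and 2.89 to 44.5 FPKM after EP400 siRNA. SPRR2D was listed at 0 in mock and stood at 8.19 FPKM after EP400 siRNA (limits 0.621 to 15.8 FPKM). On the lower side were EDN2, RARRES2, ACKR3, FOXS1, PDLIM1, FXYD7, TGM1, TNNC1, WFDC21P, ALPP, ALPG, ANKRD2, CLIC3, COL3A1 and TRIM29. COL3A1, a fibrillar collagen, was at 5.71 FPKM (0.425 to 10.99) in mock and 0.108 FPKM (0.00185 to 0.214) after EP400 siRNA. ALPP, placental alkaline phosphatase, stood at 12.7 and 0.0571 FPKM, but ALPP and ALPG are near-identical copies, so the split between them is uncertain. At the transcript level the limits were apart for 29 rows on the higher side (0.184% of 15784) and 23 on the lower side (0.146%). NRGN, EMID1 and UNC5B each had a row on both sides, as in NRGN with rows of 1215 and 1218 nt. The split of fragments between such rows of 1 gene is uncertain.

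Among 15784 transcript rows with a mean of at least 1 FPKM, 1162 passed 2-fold upward (7.36%) and 4046 downward (25.6%) as deposited. Rows with noncoding identifiers (1455) had a median log2 ratio of -0.38 and coding rows (14329) of -0.33. Of 518 long noncoding RNA genes, 26 were higher and 21 lower under all 4 scalings. Both shares lay below those of all analysed genes (6.11% and 5.76%), so the RNAs named next are single examples. UCA1, a noncoding RNA first found in bladder cancer, was at 5.09 FPKM in mock and 18.7 FPKM after EP400 siRNA (log2 ratio 1.70), and LUCAT1 at 2.10 and 9.53 FPKM (1.76). The nuclear speckle RNA MALAT1 stood at 3.23 and 10.1 FPKM (1.39), and LINC00941 at 2.59 and 9.86 FPKM (1.60). TP53TG1 was on the lower side, at 28.6 and 7.20 FPKM (-1.85), as was the imprinted RNA H19, at 5.47 and 0.820 FPKM (-1.83). The library kit named in the labels does not mark strand, so an antisense RNA and its partner gene cannot be told apart.

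Transcripts of 1 gene rarely went in opposite directions. Of 1268 genes with more than 1 row at a mean of 5 FPKM or more, 11 had a row at least 2-fold higher and another at least 2-fold lower as deposited (0.868%). With a mean of 10 FPKM or more there were 6 of 703. In DIAPH1, a formin that builds actin filaments, a row of 5763 nt went from 30.2 to 4.97 FPKM and a row of 5790 nt from 5.90 to 24.7 FPKM, while the gene as a whole had a ratio of -0.27. In KIF2C, a mitotic kinesin, a row of 2685 nt went from 18.8 to 5.31 FPKM and a row of 2880 nt from 13.4 to 45.7 FPKM. For both genes each row had a lower confidence limit of 0 in both libraries, and its limits overlapped between them. NFYC showed a complete exchange, with 1 row listed at 48.7 FPKM in mock and 0 after EP400 siRNA. Its other row, 3 nt longer, stood at 0.000898 and 39.9 FPKM, and rows this similar are hard to tell apart by their fragments.

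The 40 lists of genes were read against the median of all genes, because the choice of scaling moves that median. List medians are therefore given as log2 differences from the all-gene median on the deposited scale, and members are counted as higher or lower under all 4 scalings, where the background is 6.11% and 5.76% of genes. In 23 of the 40 lists the median lay above that of all genes. Among 5 classes of genes by mean FPKM, the median log2 ratio as deposited was 0.20 in the lowest class and -0.93 in the highest. The part of expression level in the list medians was not tested.

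**Figure D3:**
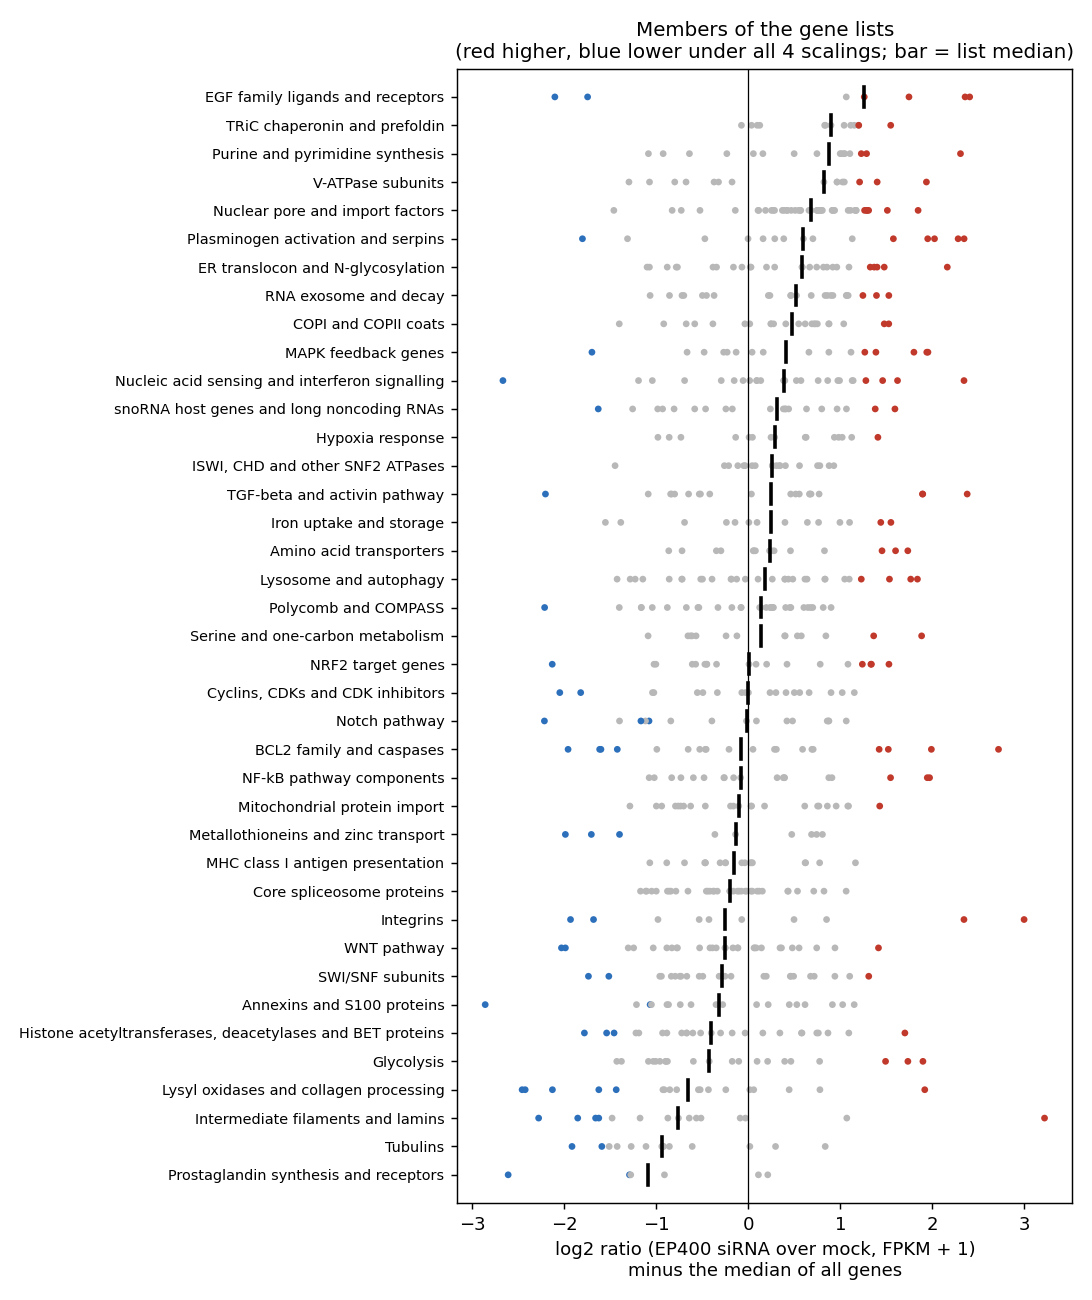
Each point is a measured member of a gene list, placed by its log2 ratio minus the median of all genes (horizontal axis); black bars are list medians, and red and blue mark members higher or lower under all 4 scalings. The EGF family has the highest median (1.26) with members at both ends, and prostaglandin synthesis the lowest (-1.09).

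In the EGF family 4 were higher and 2 lower of 7 measured members (median 1.26 above all genes). The ligands HBEGF, NRG1 and AREG and the receptor EGFR were higher, and the partner receptors ERBB2 and ERBB3 lower. The ligand TGFA, at 0.893 FPKM in mock and 2.18 FPKM after EP400 siRNA (log2 ratio 0.87), did not pass 2-fold as deposited. HBEGF, a membrane-anchored ligand of EGFR, was at 4.04 FPKM in mock and 22.3 FPKM after EP400 siRNA (log2 ratio 2.21). NRG1, the neuregulin ligand of ERBB3, stood at 2.85 and 16.2 FPKM (2.16), and the ligand AREG at 1.40 and 6.03 FPKM (1.55). EGFR itself was at 1.43 and 4.07 FPKM (1.06). ERBB2, the receptor without a ligand of its own, was at 64.4 and 12.3 FPKM (-2.30), and ERBB3 at 4.19 and 0.346 FPKM (-1.95).

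Genes induced by MAP kinase signalling, which feed back on it, had 5 higher and 1 lower of 16 members (median 0.41). The phosphatase DUSP5 was at 9.01 FPKM in mock and 32.8 FPKM after EP400 siRNA (log2 ratio 1.75), and the inhibitor SPRY2 at 1.36 and 6.89 FPKM (1.74). PHLDA1 stood at 4.43 and 15.5 FPKM (1.60). DUSP8, a phosphatase that acts on JNK and p38, was the lower member, at 10.1 and 1.97 FPKM (-1.90).

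Plasminogen activation and serpin genes had 5 higher and 1 lower of 15 members (median 0.60). PLAU, the urokinase that activates plasminogen at the cell surface, was at 38.4 FPKM in mock and 166 FPKM after EP400 siRNA (log2 ratio 2.08). SERPINE2, an inhibitor of thrombin and urokinase, stood at 12.1 and 45.4 FPKM (1.82), and SERPINA1, the inhibitor of neutrophil elastase, at 27.8 and 73.9 FPKM (1.38). SERPINF1, which encodes the antiangiogenic factor PEDF, was lower, at 36.9 and 8.46 FPKM (-2.002).

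The list of lysyl oxidases and collagen processing genes had 1 higher and 5 lower of 18 members (median -0.66). PCOLCE, which assists the trimming of procollagen, was at 196 FPKM in mock and 30.1 FPKM after EP400 siRNA (log2 ratio -2.66), and the protease BMP1 that does the trimming at 53.9 and 14.5 FPKM (-1.82). The lysyl oxidase LOXL4 stood at 47.3 and 6.84 FPKM (-2.62), and LOXL1 at 108 and 20.7 FPKM (-2.33). PLOD2, a lysyl hydroxylase of collagen ends, was the higher member, at 2.69 and 11.2 FPKM (1.72). COL1A1 was also lower, at 376 and 60.8 FPKM (-2.61), whereas the fibronectin gene FN1 was at 23.4 and 79.7 FPKM (1.72).

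Adhesion receptors divided by subunit. Of 10 integrin genes 2 were higher and 2 lower (median -0.25). ITGA6, a laminin-binding subunit, was at 3.002 FPKM in mock and 16.7 FPKM after EP400 siRNA (log2 ratio 2.15). Its hemidesmosome partner ITGB4 was at 6.65 and 1.08 FPKM (-1.88), and ITGA7, the laminin receptor subunit of muscle, at 21.1 and 4.05 FPKM (-2.13). CD44, the receptor for hyaluronan, stood at 16.4 and 72.0 FPKM (2.07).

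Tubulin and intermediate filament genes lay mostly below the all-gene median. Before subtraction of that median the medians of these lists were -1.13 and -0.96, close to -0.93 in the highest class of mean FPKM. Typical mock levels in these lists were 169 and 191 FPKM, and the part of expression level in their medians was not tested. Tubulin genes had 0 higher and 2 lower of 14 members (median -0.93), with TUBB4A at 60.9 FPKM in mock and 13.3 FPKM after EP400 siRNA and TUBA4A at 38.6 and 10.4 FPKM. Intermediate filament and lamin genes had 1 higher and 4 lower of 15 (median -0.76). KRT17, a keratin of stressed epithelia, stood at 615 and 110 FPKM (log2 ratio -2.48), and LMNB2, a lamin of the nuclear envelope, at 191 and 53.3 FPKM (-1.82). KRT15 was the higher member, and VIM had a ratio of 0.87. Annexin and S100 genes had 0 higher and 2 lower of 18 (median -0.31), S100A4 among the latter.

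The machinery that detects foreign nucleic acid was partly higher. Of 26 sensing and interferon signalling genes 4 were higher and 1 lower (median 0.39). The kinase EIF2AK2, known as PKR, was at 1.36 FPKM in mock and 5.34 FPKM after EP400 siRNA (log2 ratio 1.42), and the sensor IFIH1 at 0.292 and 2.10 FPKM (1.26). SOCS1, an inhibitor of interferon signalling, was the lower member, at 16.8 and 1.44 FPKM (-2.87).

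Antigen presentation genes of MHC class I, many of which interferon is known to induce, had 0 higher and 0 lower of 18 members (median -0.16), and 3 were at least 2-fold higher with equal weight per fragment. At the background share of 6.11%, a count of 0 in a list this short is no result about it. HLA-C was at 541 FPKM in mock and 396 FPKM after EP400 siRNA (log2 ratio -0.45), and the immunoproteasome subunit PSMB9 at 61.7 and 32.8 FPKM (-0.89). B2M, the shared light chain, stood at 218 and 426 FPKM (0.97), just short of 2-fold on the deposited scale.

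Components of the NF-kB pathway had 3 higher and 0 lower of 19 members (median -0.08), and TNFAIP3 and NFKBIZ among the higher ones are known NF-kB targets. TNFAIP3, the inhibitor A20, was at 1.06 FPKM in mock and 6.04 FPKM after EP400 siRNA (log2 ratio 1.77), and NFKBIZ at 1.88 and 8.66 FPKM (1.75). BIRC2, a ubiquitin ligase of the pathway, stood at 2.15 and 7.02 FPKM (1.35). The subunit RELA was at 98.03 and 47.4 FPKM (-1.03), a difference that did not reach 2-fold under the other scalings.

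Apoptosis genes went both ways, with 4 higher and 4 lower of 20 BCL2 family and caspase genes (median -0.08). The list does not hold the family member BCL2A1, which was at 0.435 FPKM in mock and 16.3 FPKM after EP400 siRNA (log2 ratio 3.59). PMAIP1, the killer protein NOXA, was at 4.13 FPKM in mock and 28.4 FPKM after EP400 siRNA (log2 ratio 2.52), and the NOXA-binding survival gene MCL1 at 14.9 and 38.7 FPKM (1.32). CASP4, an inflammatory caspase, stood at 8.53 and 32.0 FPKM (1.79). The killer genes BOK (67.9 and 14.4 FPKM, -2.16), BAD (198 and 55.5 FPKM, -1.82), BBC3 (17.9 and 4.41 FPKM, -1.80) and BIK (6.87 and 1.56 FPKM, -1.62) made up the lower members.

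Prostaglandin and leukotriene genes had the lowest list median, -1.09, with 0 higher and 2 lower of 6 members. ALOX5, which starts leukotriene synthesis, was at 18.3 FPKM in mock and 1.75 FPKM after EP400 siRNA (log2 ratio -2.81). PTGES, a prostaglandin E synthase, stood at 4.22 and 0.856 FPKM (-1.49).

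Receptors of developmental signalling pathways went both ways. In the Notch list 0 were higher and 3 lower of 15 (median -0.02): the receptor NOTCH3 was at 20.03 FPKM in mock and 2.94 FPKM after EP400 siRNA (log2 ratio -2.42), the ligand JAG2 at 2.81 and 0.572 FPKM (-1.28). The WNT list had 1 higher and 2 lower of 29 (median -0.25). Its receptor FZD2 stood at 34.4 and 6.55 FPKM (-2.23) and the repressor TCF7L1 at 13.2 and 2.12 FPKM (-2.19), while CTNNB1, which encodes beta-catenin, was higher, at 13.04 and 31.6 FPKM (1.22). The TGF-beta and activin list had 3 higher and 1 lower of 20 (median 0.25). The receptor TGFBR2 was at 4.62 and 24.4 FPKM (2.18), the activin subunit INHBA at 4.36 and 16.4 FPKM (1.70), and the matrix protein TGFBI at 46.0 and 151 FPKM (1.69). LTBP4, which holds latent TGF-beta in the matrix, was lower, at 94.03 and 16.95 FPKM (-2.40).

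Metabolic lists differed in their balance. Purine and pyrimidine synthesis had 3 higher and 0 lower of 16 members (median 0.87), led by CTPS1, which makes CTP, at 41.1 FPKM in mock and 180 FPKM after EP400 siRNA (log2 ratio 2.11). In this list IMPDH1 depended on the row used: at -1.12 as a sum of its rows, its most abundant row alone stood at 0.079. Serine and one-carbon genes had 2 higher and 0 lower of 14 (median 0.14), with the mitochondrial enzyme MTHFD2 at 14.1 and 47.5 FPKM (1.68). Amino acid transporters had 3 higher and 0 lower of 15 (median 0.23), among them the cystine carrier SLC7A11 at 0.436 and 3.16 FPKM (1.53).

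Glycolysis had 3 higher and 0 lower of 21 members, but its median lay below that of all genes (-0.42). The glucose transporter SLC2A3 was at 2.26 FPKM in mock and 9.58 FPKM after EP400 siRNA (log2 ratio 1.70), and hexokinase HK2 at 2.54 and 7.67 FPKM (1.29). The abundant enzymes lay lower, with GAPDH at 12383 and 5541 FPKM (-1.16) as deposited and -0.52 with equal weight per fragment. Hypoxia response genes had 1 higher and 0 lower of 15 (median 0.29), the higher member being HIF1A, at 10.03 and 24.5 FPKM (1.21).

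Redox, metal and iron genes were mixed. NRF2 target genes had 4 higher and 1 lower of 19 (median 0.01). NFE2L2, which encodes NRF2 itself, was at 4.06 FPKM in mock and 9.40 FPKM after EP400 siRNA (log2 ratio 1.04), and the antioxidant enzyme SRXN1 at 25.8 and 66.4 FPKM (1.33). Metallothionein and zinc transport genes had 0 higher and 3 lower of 9 (median -0.14, and 0.31 against genes of like length), with MT1E at 1469.7 and 322 FPKM (-2.19) and MT2A at 3179 and 2516 FPKM (-0.34). These small genes are similar copies, so the split between them is uncertain. For iron, the transferrin receptor TFRC was at 14.9 and 39.5 FPKM (1.35), and 2 were higher and 0 lower of 14 (median 0.25).

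The TRiC chaperonin, which folds actin and tubulin, and prefoldin had 2 higher and 0 lower of 13 (median 0.90), with CCT6A at 33.2 FPKM in mock and 86.1 FPKM after EP400 siRNA (log2 ratio 1.35). In nuclear pore and import genes 40 of 45 lay above the all-gene median, and 6 were higher and 0 lower (median 0.68). The importin KPNA4 stood at 1.48 and 6.75 FPKM (1.65), and IPO7 at 6.34 and 17.2 FPKM (1.31). The ER translocon and N-glycosylation list had 5 higher and 0 lower of 27 (median 0.58), with the translocon-associated SSR3 at 9.63 and 40.5 FPKM (1.96). COPI and COPII coat genes had 2 higher and 0 lower of 22 (median 0.48), and mitochondrial import genes 1 and 0 of 23 (median -0.10, and 0.28 against genes of like length).

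V-ATPase subunits, which acidify lysosomes, had 3 higher and 0 lower of 15 (median 0.82), and ATP6V1B2 was at 8.52 FPKM in mock and 30.7 FPKM after EP400 siRNA (log2 ratio 1.74). Lysosome and autophagy genes had 4 higher and 0 lower of 30 (median 0.18). The protease CTSL stood at 19.95 and 64.3 FPKM (1.64), and NPC1, which exports cholesterol from lysosomes, at 9.29 and 29.5 FPKM (1.57).

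For genes of RNA processing and chromatin the background is also 6.11% higher and 5.76% lower, and counts this small were not tested against it. The RNA exosome and decay list had 3 higher and 0 lower of 23 (median 0.52), with EXOSC9 at 8.94 FPKM in mock and 23.95 FPKM after EP400 siRNA (log2 ratio 1.33). Core spliceosome proteins had 0 higher and 0 lower of 35 (median -0.20). ISWI, CHD and other SNF2 ATPases, the relatives of EP400, had 0 higher and 0 lower of 19 (median 0.26), and SWI/SNF subunits 1 higher and 2 lower of 24 (median -0.28). The SWI/SNF subunit SMARCD3 was at 17.4 and 4.61 FPKM (-1.72). Polycomb and COMPASS genes had 0 higher and 1 lower of 29 (median 0.14, and -0.09 against genes of like length), the latter being the reader CBX2, at 87.5 and 15.6 FPKM (-2.41).

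Among histone acetylation genes 1 was higher and 3 lower of 25 (median -0.40). The deacetylase HDAC5 was at 21.3 FPKM in mock and 4.65 FPKM after EP400 siRNA (log2 ratio -1.98), HDAC6 at 30.98 and 8.58 FPKM (-1.74) and HDAC11 at 19.9 and 5.62 FPKM (-1.66). HDAC9 was the higher member, at 0.839 and 4.21 FPKM (1.503). Cyclin, CDK and CDK inhibitor genes had 0 higher and 2 lower of 19 (median 0.00), and both lower genes encode inhibitors of CDK4 and CDK6: CDKN2C at 49.2 and 9.57 FPKM (-2.25) and CDKN2D at 30.2 and 6.68 FPKM (-2.02). In the list of snoRNA host genes and long noncoding RNAs 2 were higher and 1 lower of 20 (median 0.31).

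The most abundant RNAs were largely the same in both libraries. RPLP1, a ribosomal stalk protein gene, was first in both, at 15291 FPKM in mock and 5888 FPKM after EP400 siRNA, and 11 of the 15 and 81 of the 100 highest genes were shared. The 100 highest genes held 34.9% of the FPKM sum in mock and 30.1% after EP400 siRNA. MIF, a secreted cytokine and tautomerase, was among the lower genes at 4106 and 1116 FPKM (log2 ratio -1.88). LGALS1, which encodes galectin-1, stood at 8753 and 2771 FPKM (-1.66), and -1.01 with equal weight per fragment.

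Position on the chromosomes went along with direction. Chromosomes 19, 22, 16 and 17 had the lowest median log2 ratios as deposited, at -1.05, -0.89, -0.77 and -0.59, and chromosomes 18 and 4 the highest, at 0.34 and 0.27. Of the 2537 analysed genes on chromosomes 16, 17, 19 and 22, 2.68% were higher and 10.01% lower. On the other chromosomes, with 9137 genes, 7.06% were higher and 4.57% lower. Expression level moved with this as well, since the median of the mean FPKM was 13.6 on those 4 chromosomes and 6.44 on the rest. Transcript length differed too, with a median of 2135 nt on chromosome 19 and 3234.5 nt on chromosome 18. Among 5 classes of genes by length, the median log2 ratio as deposited was -0.57 in the shortest and 0.05 in the longest. The part of expression level and of length in the difference was not tested.

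**Figure D4:**
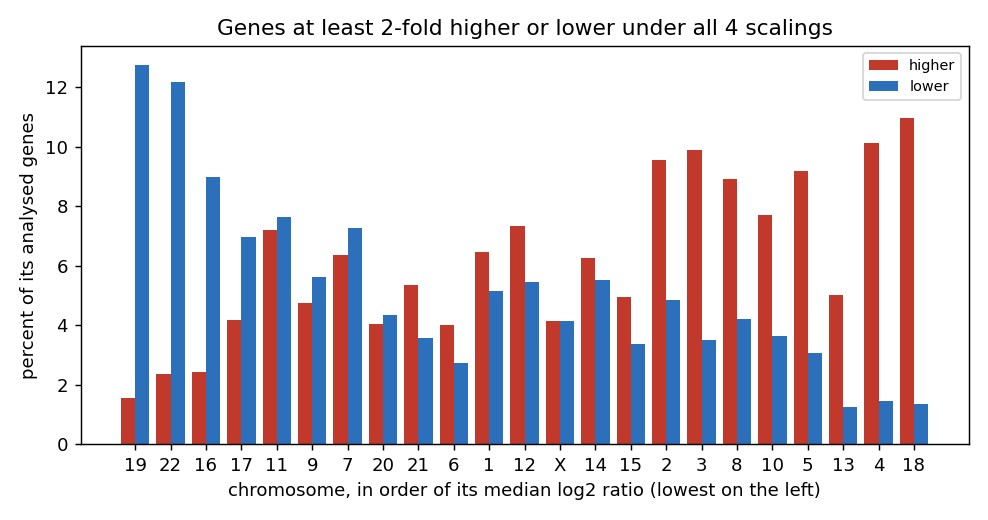
Bars give the percent of each chromosome's analysed genes that were at least 2-fold higher (red) or lower (blue) under all 4 scalings, with chromosomes in order of their median log2 ratio. Lower genes prevail on chromosome 19 (12.8% against 1.56%) and higher genes on chromosome 18 (10.96% against 1.37%).

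Runs of at least 3 neighbouring analysed genes in the same direction under all 4 scalings numbered 8 on the higher and 14 on the lower side. Of the lower runs 1 lies in a single locus of overlapping transcripts (GP1BB, SEPT5-GP1BB and SEPTIN5) and 2 span only 2 loci (SSC4D, ZP3 and DTX2, and TMEM176A, TMEM176B and KCNH2), so their members can share fragments. The longest higher runs were the IFIT cluster on chromosome 10 (hg19 91061706 to 91180759), with IFIT2, IFIT3, IFIT1 and IFIT5, and the KRTAP2 cluster on chromosome 17. In the first, IFIT1 was at 0.879 FPKM in mock and 3.58 FPKM after EP400 siRNA and IFIT5 at 0.672 and 2.68 FPKM. The serum amyloid genes SAA1 and SAA2 on chromosome 11 formed a run with MRGPRX4, and CCL3 formed one with its copies CCL3L1 and CCL3L3, where near-identical sequence makes the split uncertain. On the lower side the keratin genes KRT14, KRT16 and KRT17, the glutathione transferases GSTM1, GSTM2 and GSTM4, and the metallothioneins MT1E, MT1L and MT1JP stood in runs. FSTL3, PALM and MISP on chromosome 19 (hg19 676389 to 764318) were all at least 4-fold lower as deposited, with FSTL3 at 107 and 23.4 FPKM and PALM at 43.7 and 5.26 FPKM. At 4-fold as deposited, pairs or longer runs numbered 5 higher and 17 lower, and 5 of the lower ones lie in 1 locus of overlapping transcripts, where fragments can be shared.

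The peak lists of the series show what stood at the ends of the loci of these genes. A gene end here means the 2 kb before and after both ends of its locus, since the table gives no strand. A locus is a stretch of overlapping transcripts, so its ends can be those of another gene. SSC4D and ZP3 share the same ends, and PTX3, with a transcript of 1938 nt, has a locus from 156977532 to 157221415 (hg19). How many genes this touches was not counted. The Pol II, MED26, H3.3, H2AZ, H3K18ac and H3K4me1 lists each come from 1 library. The EP400 list is a single list for 3 EP400 ChIP libraries, and how they were combined is not given in the sources used here. An EP400 peak lay at the ends of 35.3% of all analysed genes, 31.7% of the higher genes (Wilson 95% interval 28.4% to 35.2%) and 28.7% of the lower genes (25.4% to 32.3%). Pol II peaks in mock cells were at 85.3% of all genes, 74.3% of higher genes and 88.7% of lower genes. After EP400 siRNA the Pol II shares were 79.99%, 68.02% and 82.6%, so the order of the classes was that of mock cells.

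H3.3 peaks in mock cells were at 69.1% of all genes, 56.1% of higher genes (interval 52.4% to 59.7%) and 86.3% of lower genes (83.5% to 88.7%). After EP400 siRNA the shares were 34.3%, 39.8% (36.3% to 43.5%) and 28.9% (25.6% to 32.4%), with the order of the classes turned round. A peak present in mock only was found at 40.1% of all genes, 26.9% of higher genes and 58.2% of lower genes. A peak present after EP400 siRNA only was found at 5.36%, 10.7% and 0.744%. The lower genes also had the higher mock RNA levels (medians 22.3 and 2.79 FPKM), in part because the classes were set by the RNA ratio. The part of that difference was not tested. Without the genes of chromosomes 16, 17, 19 and 22, a comparison added after the data were seen, mock H3.3 peaks were at 64.6% of all, 55.04% of higher and 80.6% of lower genes.

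**Figure D5:**
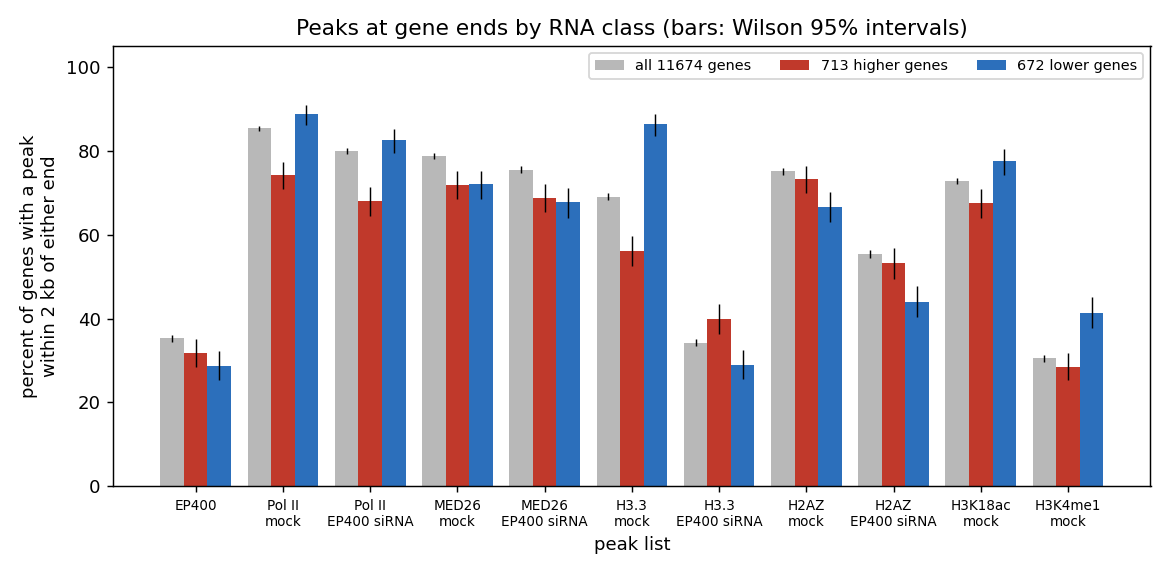
Bars give the percent of genes with a peak within 2 kb of either end of their locus, for each peak list. Grey bars are all 11674 genes, red the 713 higher and blue the 672 lower genes. Wilson 95% intervals cover counting error only. The lower genes have the largest share of H3.3 peaks in mock (86.3%) and the smallest after EP400 siRNA (28.9%).

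H2AZ peaks in mock cells were at 75.1% of all genes, 73.2% of higher genes and 66.7% of lower genes, and after EP400 siRNA at 55.4%, 53.2% and 44.0%. MED26, a Mediator subunit, had mock peaks at 78.7%, 71.9% and 72.0%. The enhancer mark H3K4me1, measured in mock cells, was at 30.5% of all, 28.5% of higher genes and 41.4% of lower genes. Among the 30 highest genes an EP400 peak lay at 2, beside a share of 35.3% over all analysed genes. A Pol II peak lay at 10 of the 30 in mock and 4 after EP400 siRNA, beside 85.3% and 79.99% of all genes. Of the 30 lowest genes 7 had an EP400 peak. H3.3 peaks were at 27 of them in mock and 9 after EP400 siRNA, beside 69.1% and 34.3% of all genes. ESM1 had a Pol II peak in mock and none after EP400 siRNA, and MMP3 had none in either. Peak lists carry no height or depth, so a shorter list can come from a shallower library.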

How the data were processed

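The authors deposited FPKM with confidence limits and a status per transcript, per the file headers; Bowtie 0.12.9, TopHat2 2.0.8, Cuffdiff 2.0.2 and hg19 are named in the submitters' processing notes. The annotation release, the normalization setting and the peak caller: each is not given in the sources used here. Each ChIP file holds peak intervals deposited by the authors without a score. Symbols came by RefSeq identifier from a GRCh38.p14 table (47555 rows, 97.7%). Rows under 200 nt (2116) or with a failed estimate (404) were left out, and rows were summed per gene. Fragments were recovered from steps of the FPKM, a method tested on simulated data, and the library totals were 47086150 and 47148767. Alternatives covered the pseudocount (0.1, 0.5), filters, rows, scalings and gene ends. Genes were named by rule: EP400, the 30 highest and 30 lowest ratios at a mean of 5 FPKM or more, genes with limits apart, the 15 most abundant, up to 6 members per list and any other needed for its role, genes that crossed a detection level, up to 10 with opposed transcripts, genes in runs and marker genes. Genes listed at 0 in either library were left out of the 30 highest and 30 lowest. Runs of 3 genes at 2-fold were added after the data were seen. Members and lists were chosen with earlier results of these data known. A few named genes and 1 list are not reported here. Python 3.11.15, pandas 2.3.3, numpy 2.4.6, scipy 1.17.1 and matplotlib 3.10.9 were used.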

Additional observations from a re-analysis of the deposited data

How the results depend on the processing

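No paired analysis was possible because each RNA group has 1 library. The scaling per recovered fragment, like the length classes and the chromosomes left out, was chosen after the data were seen. Of 359 named or listed genes past 2-fold, 1 reversed: IMPDH1, at 0.079 by its most abundant row. Another 51 lost the 2-fold level on centring, 118 on rescaling, 110 per fragment and 9 by the most abundant row. Counts of higher genes moved from 713 to 1316 with a pseudocount of 0.1, 417 at a mean of 5 FPKM or more, 1260 on centring, 3701 on rescaling (TPM) and 2875 per fragment, and lower genes from 2678 to 696 and 828 under the latter 2. The median of all genes moved to -0.57 at a mean of 5 FPKM or more, 0 with no filter, 0.48 (TPM) and 0.35 (per fragment). Higher transcripts moved from 1162 to 1944, 474, 2441, 4460 and 3526 in that order of settings, and lower transcripts from 4046 to 2120, 1403 and 1549 under the last 3. Genes with opposed transcripts went from 11 to 6 at a mean of 10 FPKM or more, and crossing genes from 33 to 4 and from 31 to 2 at 0.5 and 10 FPKM. Mock H3.3 shares were 49.2% and 64.9% of higher genes, and 78.4% and 89.9% of lower genes, at ends of 1 kb and 5 kb, and 80.6% of lower genes with the chromosomes left out. Against genes of like length, list medians were 0.54 for V-ATPase, 0.32 for the ER translocon and -0.04 for annexins and S100. The direction turned in 8 lists: TGF-beta (-0.01), MHC class I (0.0029), NF-kB components (0.03), NRF2 targets (-0.05), cyclins and CDKs (-0.04), metallothioneins and zinc (0.31), mitochondrial import (0.28) and Polycomb and COMPASS (-0.09). Depth limits low genes: 128 higher and 21 lower genes had under 100 fragments in mock.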
